A study of Mus musculus with 18 samples.

Results

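Acot11, Fam151a, Cyp2s1, Pttg1ip, Flvcr2, Alppl2, Cited1 and Slc6a8 are 8 mouse genes whose transcripts stood higher in embryos labelled Oct4 null than in wild type embryos at both E2.5 and E3.75. They were chosen by that outcome, an adjusted p under 0.05 and a higher level in null embryos at both stages in limma, a linear model fitted to every gene of a stage. Of the 5893 genes with values at both stages, 12 met these conditions, and the 8 genes described here are among them. The whole set of tables holds 8202 genes, 5430 of them at all 3 stages, and the 8 genes have values in every library of all 3 stages. Because E2.5 and E3.75 chose the genes, their differences there are given as descriptions with no test. The conditions used no value of E4.5, and only at that stage are the genes tested. How the 8 were picked from the 12 is not stated, and earlier results of these data were known by then. The tables list them as ENSMUSG00000034853 (Acot11), ENSMUSG00000034871 (Fam151a), ENSMUSG00000040703 (Cyp2s1), ENSMUSG00000009291 (Pttg1ip), ENSMUSG00000034258 (Flvcr2), ENSMUSG00000026246 (Alppl2), ENSMUSG00000051159 (Cited1) and ENSMUSG00000019558 (Slc6a8). They lie on chromosomes 4 (Acot11 and Fam151a), 7 (Cyp2s1), 10 (Pttg1ip), 12 (Flvcr2), 1 (Alppl2) and X (Cited1 and Slc6a8).

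The study compared Oct4 null (Oct4 -/-) with wild type (Oct4 +/+) embryos of the CD1 strain, to find genes that depend on Oct4 in the living embryo. The groups were null and wild type embryos at E2.5, the same 2 genotypes at E3.75, and the same 2 at E4.5, each with 3 libraries, 18 in all. Embryos were flushed out of the oviduct or uterus, given no treatment, and their RNA was primed with oligo(dT) and amplified so that reads gather near the 3′ ends of polyadenylated transcripts. Neither the deleted part of Oct4, nor the genotyping, nor the number of litters behind a group is stated in the labels. The p-values below therefore cover the spread from library to library, part of which may be technical.

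Oct4, encoded by Pou5f1, is a POU-domain transcription factor that binds an octamer sequence and is needed for the pluripotent cells of the inner cell mass. Embryos without it form a blastocyst with an outer trophectoderm, but their inner cells do not keep a pluripotent identity. The 8 genes belong to no common pathway. They comprise a creatine transporter and a heme or choline transporter, enzymes acting on acyl-CoA, retinoids and phosphate esters, a transcriptional coregulator, a partner of the mitotic protein securin, and a membrane protein of little known function.

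The libraries held 364936 to 1922432 reads, recovered from the deposited CPM values, the reads of a gene scaled so that all genes of a table sum to 1000000 in each library. Null libraries were deeper than wild type libraries at E2.5, at 1361903 to 1922432 reads in null embryos against 868033 to 1233635 in wild type embryos. Relative to its wild type mean, Pou5f1 in null embryos stood at 0.516 for E2.5, was at 0.506 a stage later and at 0.483 by E4.5. Every null library lay below every wild type library at each stage, but reads of Pou5f1 remained in all of them, at 931 to 1011 CPM at E2.5, 221 to 286 CPM at E3.75 and 95.1 to 142 CPM at E4.5. As the deleted part is not stated, these reads near the 3′ end do not show whether a working transcript was absent, and the null label rests on the submitters' genotype. The third library of each group resembled a weighted mean of the other 2: around that mean its variance was 1.11 to 1.31 times that of read sampling, and the like value ran from 1.42 to 3.15 for libraries 1 and 2. Values with the first 2 libraries alone are therefore given too. The SDs, intervals and p-values over 3 libraries count the third as a separate replicate. Were it a mix of the other 2, the intervals would be too narrow and the p-values too low. No replicate number tells the 3 wild type libraries of E4.5 apart, so they are given as A, B and C. Depth, and any other difference between libraries listed here, was not tested as a part of the results below.

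All 8 genes were higher in null than in wild type embryos at each of the 3 stages. The lowest null library lay above the highest wild type library in 8 of 8 cases at E2.5 (13.6% of all genes tested), in 7 of 8 at E3.75 (11.4%), all but Slc6a8, and in 2 of 8, Cyp2s1 and Cited1, once E4.5 was reached (12.2%). Of all genes, 0.409% were called higher at E2.5 and 3.6% at E3.75, the calls on which the choice rests. The median log2 difference of the 8, null minus wild type, was 0.57 at E2.5 (all genes -0.015), then 0.56 at E3.75 (all genes -0.039) and, by E4.5, 0.51 (all genes 0.059). The choice depends on single libraries: without null library 1, 0 of the 8 would have met the condition at E2.5 (0% of all genes) and 6 that at E3.75 (1.76%). In these whole embryos, more cells of a type and more RNA per cell cannot be told apart.

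**Figure D1:**
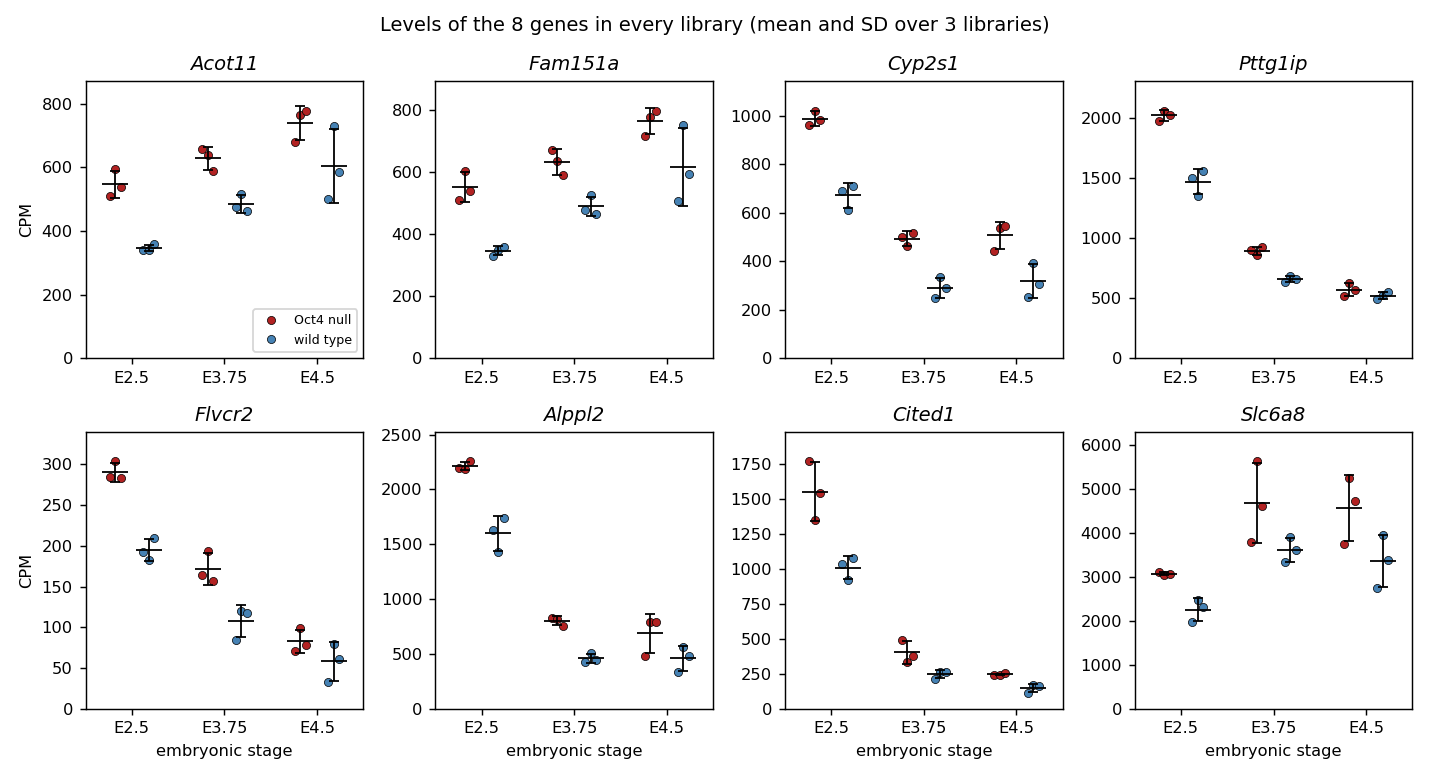
Level of each of the 8 genes in CPM (y axis) by embryonic stage (x axis), with 1 point per library, Oct4 null in red left of wild type in blue, and bars for the mean and SD of 3 libraries. The groups stand apart at E2.5 for all 8 genes, and at E4.5 only Cyp2s1 and Cited1 keep every null library above every wild type library.

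Of the transporters, Slc6a8 carries creatine, the reserve from which phosphocreatine is made, into cells. At E2.5 it stood at 3100.1, 3038 and 3068 CPM in null libraries 1 to 3, against 1961, 2466 and 2323 CPM in wild type libraries 1 to 3. The null libraries varied little among themselves, and none came near the wild type ones. At E3.75 its level was 3798, 5624 and 4614 CPM in null embryos, against 3342, 3894 and 3607 CPM in wild type embryos, and the lowest null library fell below the highest wild type library. At E4.5 it was 3754, 5236 and 4722 CPM in null embryos and 2755, 3944 and 3377 CPM in wild type libraries A to C, and the groups overlapped again through null library 1 and wild type library B. The log2 difference at E4.5 was 0.45 (SE 0.14, 95% interval 0.15 to 0.74) and did not pass, with an adjusted p of 0.191 in limma and 0.0396 to 0.832 over the other ways of processing.

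Flvcr2 is a membrane transporter of the FLVCR family, described for heme and for choline, and is known in mice for its need in the vessels of the growing brain. It had 284, 304 and 283 CPM in null libraries at E2.5, against 193, 183 and 209 CPM in wild type libraries. At E3.75 the null libraries held 164, 193 and 157 CPM and the wild type libraries 84.6, 121 and 118 CPM. The groups stood apart at both stages. At E4.5 Flvcr2 was at its lowest in both genotypes, with 71.2, 98.9 and 78.9 CPM in null embryos and 33.1, 79.5 and 61.6 CPM in wild type embryos. Wild type library A was far below the other 2, and wild type library B lay above 2 of the 3 null libraries. Its log2 difference of 0.58 had the widest interval of the 8 genes (SE 0.29, 95% interval -0.046 to 1.21; adjusted p = 0.357, limma, and 0.108 to 0.833 over the other ways of processing).

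Among the enzymes, Cyp2s1 is a cytochrome P450 known for the metabolism of retinoids and for its induction by dioxin through the aryl hydrocarbon receptor. At E2.5 it stood at 961, 1022 and 985 CPM in null libraries against 692, 614 and 711 CPM in wild type libraries. At E3.75 it stood at 502, 462 and 519 CPM in null libraries against 250.1, 334 and 288 CPM in wild type libraries. At E4.5 the null libraries held 444, 536 and 545 CPM and the wild type libraries 252, 392 and 307 CPM. Null and wild type libraries did not overlap at any stage, E4.5 included. The E4.5 log2 difference was 0.70 (SE 0.16, 95% interval 0.35 to 1.04), with an adjusted p of 0.136 in limma. It passed in DESeq2 (adjusted p = 0.00655), in a fit over all 18 libraries (0.00723) and without null library 1 (0.0395), and reached 0.0511 in edgeR and 0.832 with the first 2 libraries.

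Alppl2 is an alkaline phosphatase held at the cell surface by a glycolipid anchor, of the kind long used as a marker of early embryo and germ cells. It stood at 2198, 2186 and 2256 CPM in null libraries at E2.5, against 1633, 1429 and 1742 CPM in wild type libraries. At E3.75 the levels were 829, 822 and 755 CPM in null embryos and 431, 510.3 and 443 CPM in wild type embryos, a ratio of means of 1.74 that was the greatest of the 8 genes at that stage. At E4.5, null library 1 had 482 CPM and null libraries 2 and 3 had 792 and 789 CPM, against 337, 560.4 and 479 CPM in wild type libraries A to C. Null library 1 alone made the groups overlap. The log2 difference at E4.5 was 0.58 (SE 0.21, 95% interval 0.12 to 1.04), with an adjusted p of 0.234 in limma, 0.0396 without null library 1 and up to 0.832 over the other ways of processing. The intestinal alkaline phosphatase gene Alpi lies next to Alppl2 and resembles it, and how reads common to both were counted is not given in the sources used here.

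Acot11 is a thioesterase that splits fatty acyl-CoA into free fatty acid and coenzyme A, and is known in mouse brown fat. Fam151a encodes a membrane protein of little known function. Acot11 had 509, 594 and 538 CPM in null libraries at E2.5, against 341, 341 and 357 CPM in wild type libraries, and Fam151a had 510.3, 603 and 539 CPM in null libraries against 329, 349 and 357 CPM in wild type libraries. At E3.75 Acot11 stood at 659, 639.7 and 589 CPM in null embryos and 474, 517 and 462 CPM in wild type embryos. The groups stood apart at both stages for both genes. At E4.5 Acot11 was at 679.6, 764 and 778 CPM in null embryos and 501, 731 and 585 CPM in wild type embryos, and wild type library B lay above null library 1. Fam151a stood at 715, 777 and 797 CPM in null embryos and 505, 752 and 592 CPM in wild type embryos at E4.5, with the same overlap. The E4.5 log2 difference was 0.30 for Acot11 (95% interval 0.014 to 0.59, adjusted p = 0.308, limma) and 0.33 for Fam151a (95% interval 0.032 to 0.62, adjusted p = 0.285, limma), and neither passed in any of the 16 ways of processing.

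The levels of these last 2 genes were nearly the same in every library, and their transcripts share sequence. In the GRCm38 annotation (GENCODE M21) both lie on chromosome 4, Acot11 on the minus strand and Fam151a on the plus strand, and 1263 of the 1923 exonic bases of Fam151a lie inside exons of the Acot11 transcript that the tables name. The last exon of Fam151a, 754 bases, lies whole within the 3930 bases of the last exon of that transcript. None of those 754 bases codes for Acot11 protein, while 731 of them code for Fam151a, stop codon included. The window of 30 bases ending at the Fam151a stop codon, chr4:106748240-106748269, shows how the same bases belong to both transcripts. It is printed once as each transcript carries it, 5′ to 3′, with the stop codon of Fam151a or its complement in capitals.
Fam151a, plus strand: gtggaaggcttccctggggagtcaaggTGA
Acot11, minus strand: TCAccttgactccccagggaagccttccac

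Since the libraries read mostly near the 3′ end, the overlap of the transcript ends bears on the counts. All of the last 1000 bases of Fam151a lie in exons of the Acot11 transcript that the tables name. In the other direction, 82 of the last 1000 bases of that Acot11 transcript lie in Fam151a exons, and 696 of 1000 for a second coding Acot11 transcript, whose last exon has 1250 bases. Whether reads were counted by strand is not given in the sources used here, and without strand, reads from the shared bases cannot be told apart.

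Fam151a had 11034 reads and Acot11 10922 reads over the 18 libraries, and the 2 counts differed by at most 4.98% in every one of the 18. In E2.5 null libraries 1 to 3 Fam151a had 695, 1160 and 1034 reads and Acot11 693, 1141 and 1031. In E2.5 wild type libraries 1 to 3 Fam151a had 302, 303 and 441 reads and Acot11 313, 296 and 441. The counts differed by 25 reads at most, with Fam151a higher in 14 libraries, Acot11 higher in 3 and the counts equal in 1. Of 395 gene pairs with exons overlapping on opposite strands, 6 had counts within 5% in all 18 libraries, Fam151a with Acot11 among them, against 0 of 3160 pairs of adjacent genes without exon overlap. The 8 genes therefore stand for at most 7 separate measurements. Counts of the 8 hold both rows, and those for 7, with the row of Fam151a left out, are given beside the main ones. No other of the 8 genes had exons overlapping those of a gene with values at all 3 stages.

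**Figure D2:**
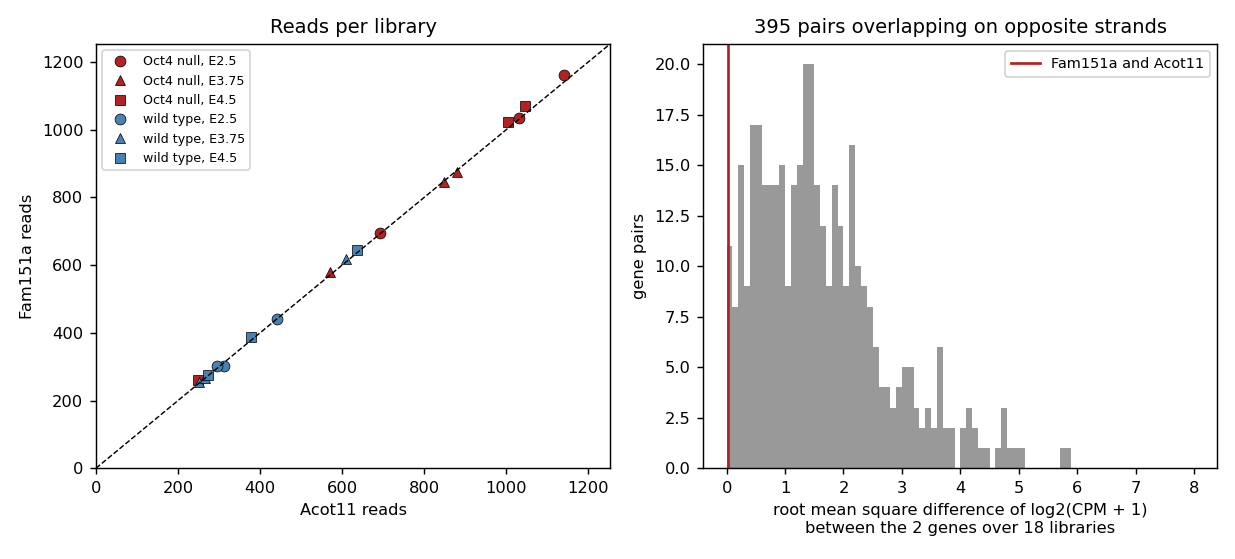
Left, recovered reads of Fam151a (y axis) against those of Acot11 (x axis) in the 18 libraries, by genotype (colour) and stage (shape), with the line of equal counts. Right, the number of gene pairs with exons overlapping on opposite strands (y axis) by the root mean square difference of log2(CPM + 1) between the 2 genes (x axis), where Fam151a and Acot11, at 0.0289, have rank 6 of 395.

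Cited1 is a transcriptional coregulator that binds the coactivators CBP and p300, works with SMAD and TFAP2 factors, and is known in the mouse for its role in the placenta. At E2.5 it stood at 1767, 1347 and 1538 CPM in null libraries and 1031, 920.5 and 1075 CPM in wild type libraries. At E3.75 the null libraries held 491, 334 and 380.5 CPM and the wild type libraries 214, 265 and 264 CPM. The null libraries were spread more widely than the wild type ones at both stages, and still all lay higher. At E4.5 the level was 244, 241 and 252 CPM in null embryos and 114, 171 and 161 CPM in wild type embryos, again with no overlap. The log2 difference at E4.5 was 0.74 (SE 0.16, 95% interval 0.39 to 1.1), the greatest of the 8 genes. Its adjusted p was 0.136 in limma, 0.0186 in DESeq2, 0.011 in the fit over all 18 libraries and 0.0478 without null library 1, but 0.0535 in edgeR and 0.832 with the first 2 libraries.

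Pttg1ip binds securin, the protein that holds separase inactive until sister chromatids part, and helps carry it into the nucleus. It had 1970.0, 2057 and 2025 CPM in null libraries at E2.5, against 1497, 1349 and 1559 CPM in wild type libraries. At E3.75 it had 903, 857 and 923 CPM in null libraries and 632, 685 and 658 CPM in wild type libraries, and the groups stood apart at both stages. At E4.5 the null libraries held 518, 622 and 569.6 CPM and the wild type libraries 488, 525 and 549 CPM. Here 1 null library lay among the wild type libraries, and the log2 difference of 0.13 was the smallest of the 8 genes (SE 0.11, 95% interval -0.10 to 0.36, adjusted p = 0.574, limma, and 0.314 to 0.884 over the other ways of processing). Whether the difference at E4.5 is smaller than at the earlier stages was not tested, since the earlier values chose the gene.

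At E4.5, then, 0 of the 8 genes passed in limma, as did 0% of all 6545 genes, and 6 of 8 were higher at an unadjusted p under 0.05 (5 of 7 with Acot11 and Fam151a as 1), against 8.56% of all genes. The differences were above 0 for all 8 genes in each of the 16 ways of processing, while 56% of all genes had a difference above 0. In edgeR's quasi-likelihood test 0 of 8 passed, when 0.0153% of all genes were called higher at an adjusted p under 0.05. DESeq2 called 2 of 8, Cyp2s1 and Cited1, and 1.03% of the genes to which it gave an adjusted p. The fit over all 18 libraries called 4 of 8, namely Cyp2s1, Alppl2, Cited1 and Slc6a8, and 2.17% of all genes in it, and leaving out null library 1 called the same 4 and 0.535% of all genes. With the first 2 libraries of each group, 0 of 8 passed, as did 0 of all 6545 genes.

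**Figure D3:**
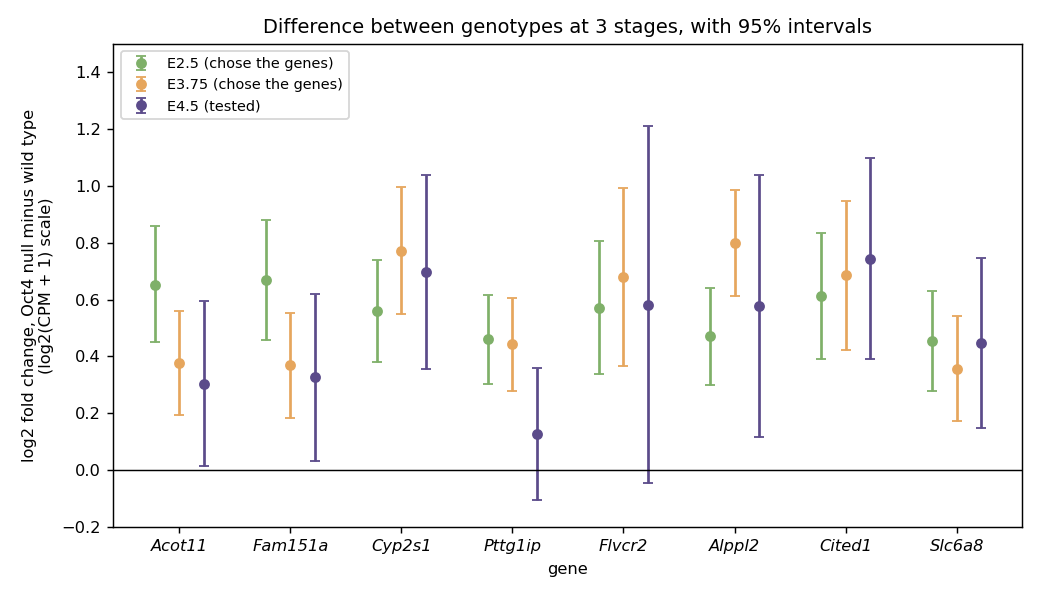
Difference of each gene between Oct4 null and wild type embryos on the log2(CPM + 1) scale (y axis) for the 3 stages (colours), with 95% intervals from limma. The E2.5 and E3.75 values chose the genes, and at E4.5 the intervals of Pttg1ip and Flvcr2 reach below 0.

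**Figure D4:**
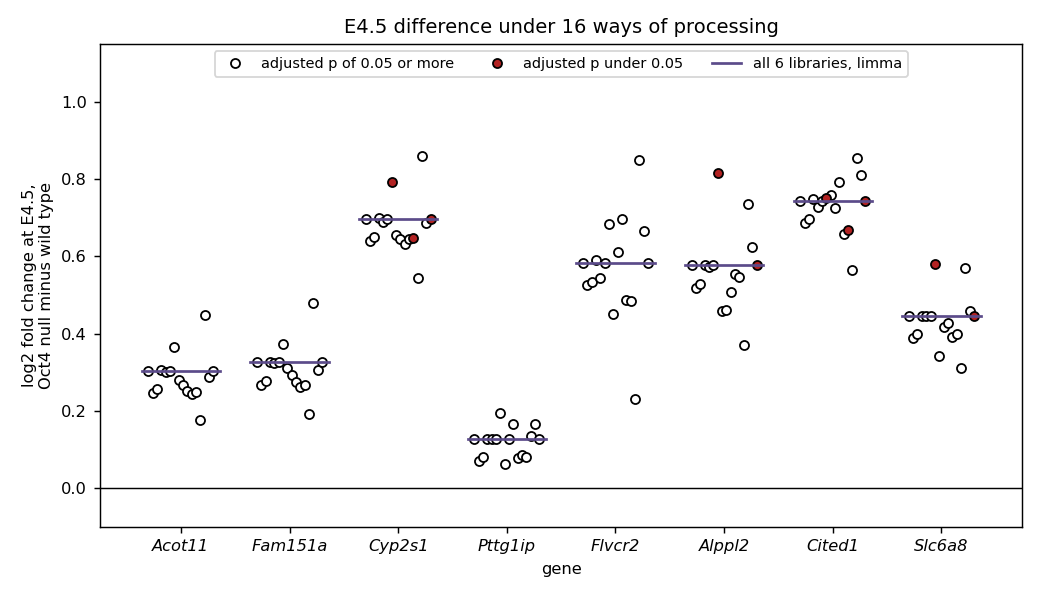
Difference between Oct4 null and wild type embryos at E4.5 (y axis, log2 fold change) for each gene under 16 ways of processing, 1 circle each, filled where the adjusted p was under 0.05. All circles lie above 0, and filled circles appear for Cyp2s1, Alppl2, Cited1 and Slc6a8.

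The 8 genes often had their extremes in the same library in wild type embryos, and in null embryos only the lowest of E4.5 fell together. At E4.5 null library 1, the shallowest of all, was the lowest null library for 7 of the 8 genes (6 of 7 with Acot11 and Fam151a as 1), and wild type library A was the lowest wild type library for all 8. Wild type library B was the highest wild type library for 7 of 8 at that stage, while the highest null library was library 2 for 4 genes and library 3 for 4. At E3.75 wild type library 2 was the highest wild type library for all 8 genes, and at E2.5 wild type library 3 was the highest for 7. The lowest null library was library 1, 2 and 3 for 4, 3 and 1 genes at E2.5 and for 1, 3 and 4 genes at E3.75. The highest was library 1, 2 and 3 for 2, 5 and 1 genes at E2.5 and for 4, 2 and 2 genes at E3.75. The 8 genes were read from the same libraries and are not independent readings of a genotype.

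Levels at different stages come from tables scaled separately, and the following ratios are descriptions. In 5 genes the level at E4.5 was below that at E2.5 in both genotypes: the ratio of means was 0.159 in null and 0.147 in wild type embryos for Cited1, and 0.311 in null and 0.286 in wild type embryos for Alppl2. It was 0.286 in null and 0.298 in wild type embryos for Flvcr2, 0.282 in null and 0.355 in wild type embryos for Pttg1ip, and 0.514 in null and 0.472 in wild type embryos for Cyp2s1. Slc6a8 and the shared Acot11 and Fam151a measurement went the other way. Slc6a8 stood at 1.49 times its E2.5 mean at E4.5 in both genotypes, and Acot11 at 1.35 times in null and 1.75 times in wild type embryos. The genes were chosen for a higher level in null embryos at E2.5 and E3.75, and they followed 2 different courses over time.

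Profiles over the 18 libraries, each gene centred on its own mean of log2(CPM + 1), were compared by their root mean square difference among 5430 genes. Within the 8, Acot11 and Slc6a8 were 0.218 apart and Pttg1ip and Alppl2 0.3 apart, but Cited1 and Slc6a8, the farthest pair, 1.44 apart. The median distance from a member to all genes ran from 0.648 for Acot11 to 1.17 for Cited1. The closest profile to that of Pttg1ip belonged to Cenpa, the centromere histone, at 0.0916. For Cited1 it was Fbxo15, an F-box gene of pluripotent cells, at 0.245, and for Slc6a8 Lrrc59, a membrane protein of the endoplasmic reticulum, at 0.179. The closest to Cyp2s1 was Grn, the growth factor progranulin, at 0.222, and the next was Espl1, which encodes separase, at 0.23. Alppl2 was closest to Chtf18, a replication clamp loader subunit, at 0.213, Flvcr2 to the phosphatase gene Ppm1a at 0.222, and Acot11, after Fam151a, to the tetraspanin gene Cd9 at 0.197. The second closest were Tyms to Pttg1ip (0.152), Sord to Slc6a8 (0.186), Ckb to Fam151a (0.205), Zc3hc1 to Flvcr2 (0.248), Isyna1 to Cited1 (0.257) and Pemt to Alppl2 (0.283). The 18 libraries share their stages, and over the 12 libraries of E2.5 and E3.75 alone, Cyp2s1, Flvcr2, Alppl2 and Cited1 shared neither of their 2 closest genes with this list.

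Promoter sequences from the RefSeq table (GRCm38.p6) were at hand for 7 of the 8 genes, in 10 windows of the 250 bases before a transcription start. The octamer ATGCAAAT was in 0 of the 10 windows on either strand, and in 1.6% of all 32851 windows of that length. The letters CATTCC, bound by TEAD factors of the trophectoderm, were in 2 windows against 12.6% of all, and GCCNNNGGC, bound by TFAP2 factors, was in 2 windows against 13.7% of all, each searched on both strands. The 4 windows with a match are shown because they hold the only matches to the 3 motifs, which are in capitals and do not overlap one another. Each is written 5′ to 3′ on the strand of its gene. A match is a run of letters, not a binding site.
Flvcr2, chr12:85746289-85746538, plus strand: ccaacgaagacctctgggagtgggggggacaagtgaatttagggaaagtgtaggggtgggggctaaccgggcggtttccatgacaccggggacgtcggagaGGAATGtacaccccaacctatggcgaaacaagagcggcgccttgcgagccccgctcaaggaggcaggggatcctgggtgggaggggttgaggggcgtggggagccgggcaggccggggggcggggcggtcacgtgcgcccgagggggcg
Pttg1ip, chr10:77581405-77581654, plus strand: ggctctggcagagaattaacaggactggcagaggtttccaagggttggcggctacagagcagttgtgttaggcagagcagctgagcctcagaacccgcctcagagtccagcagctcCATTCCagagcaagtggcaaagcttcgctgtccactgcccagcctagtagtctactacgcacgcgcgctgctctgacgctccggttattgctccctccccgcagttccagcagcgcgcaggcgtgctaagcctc
Acot11, chr4:106805008-106805257, minus strand: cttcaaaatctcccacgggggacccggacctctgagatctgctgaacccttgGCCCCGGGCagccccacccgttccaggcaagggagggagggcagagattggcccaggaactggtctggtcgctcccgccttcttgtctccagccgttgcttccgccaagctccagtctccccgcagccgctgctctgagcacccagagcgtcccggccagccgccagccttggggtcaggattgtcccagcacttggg
Cited1, chrX:102250777-102251026, minus strand: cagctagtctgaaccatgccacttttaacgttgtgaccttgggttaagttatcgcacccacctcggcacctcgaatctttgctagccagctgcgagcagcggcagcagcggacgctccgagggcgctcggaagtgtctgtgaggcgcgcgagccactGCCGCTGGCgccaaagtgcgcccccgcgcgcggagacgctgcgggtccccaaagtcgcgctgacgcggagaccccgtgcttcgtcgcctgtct

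Genes next to the 8 on their chromosomes were looked at in the same fits. Of 16 neighbouring positions, 2 were Acot11 and Fam151a beside each other, and 5 held genes with values, Ssbp3, Sumo3, Erg28, Rps4x and Bcap31. In limma 0 of these 5 passed in either direction at any stage, and Ssbp3 had no value at E2.5. Of all genes, 0.409% were called higher and 0.184% lower at E2.5, 3.6% and 4.6% at E3.75, and 0% at E4.5. A count of 0 of 5 is near those shares. Bcap31, beside Slc6a8, averaged 684 CPM in null and 654 CPM in wild type embryos at E3.75 (adjusted p = 0.703, limma).

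Cited1 and Slc6a8 lie on the X chromosome. The median log2 difference of the other measured X genes was 0.068 at E2.5 (autosomal genes -0.020), -0.12 at E3.75 (autosomal genes -0.038) and 0.18 at the last stage (autosomal genes 0.060). Xist, the RNA that coats the inactive X, stood at 16.2, 26.9 and 20.2 CPM in null and 52.7, 28.0 and 39.9 CPM in wild type libraries at E3.75 (adjusted p = 0.0509, limma). At E4.5 it stood at 19.2, 31.2 and 20.1 CPM in null and 16.6, 9.69 and 16.5 CPM in wild type libraries (adjusted p = 0.367, limma). The part of embryo sex in the levels of these 2 genes was not tested.

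Other genes of the same pathways were tested in limma. Of the creatine list, 1 of 3 other measured genes rose at E2.5, against 0.409% of all genes, namely Ckb, the brain creatine kinase, which averaged 1079 ± 33.9 CPM in null and 804 ± 36.1 CPM in wild type embryos (SD, n = 3 each; log2 difference 0.43, adjusted p = 0.0307, limma). That call held without 2 of the 6 libraries left out in turn, and its adjusted p was 0.604 with the first 2 libraries. At E3.75 and E4.5, 0 of 2 passed. Of the heme list, 2 of 16 rose at E3.75, against 3.6% of all genes: Slc46a1, a transporter of folate and heme, averaged 642 ± 20.5 CPM in null and 431 ± 40.4 CPM in wild type embryos (adjusted p = 0.000401, limma, and at most 0.0103 over 16 other ways of processing). The other was Abcb6, a porphyrin transporter, at 114 ± 7.52 CPM in null and 73.8 ± 5.43 CPM in wild type embryos (adjusted p = 0.0139, but 0.115 with the first 2 libraries). At E2.5 0 of 17 passed and at E4.5 0 of 16, and the list's median log2 difference at E3.75 was -0.10 (all genes -0.039).

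Alpl, the tissue-nonspecific alkaline phosphatase, went opposite to Alppl2 at E3.75, falling to 27.1 ± 4.04 CPM in null against 55.0 ± 14.4 CPM in wild type embryos (log2 difference -0.98, adjusted p = 0.0117, limma, and at most 0.0497 over 16 other ways of processing). Dpm2, a subunit of the dolichol phosphate mannose synthase that feeds glycolipid anchor assembly, was higher at that stage, at 252 ± 30.7 CPM in null against 189 ± 16.9 CPM in wild type embryos (adjusted p = 0.0407, but over 0.05 in 8 of 16 other ways of processing). These were 1 lower and 1 higher of 18 genes of the alkaline phosphatase and glycolipid anchor list at E3.75, against 4.6% of all genes called lower and 3.6% called higher. At E2.5 0 of 15 passed, and at E4.5 0 of 17.

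Of the acyl-CoA thioesterases and synthetases, 1 of 12 fell at E3.75, against 4.6% of all genes. It was the fatty acid transporter gene Slc27a4 (49.6 ± 2.36 CPM in null, 79.6 ± 18.6 CPM in wild type embryos, adjusted p = 0.0414, limma). That call was lost under 11 of 16 other ways of processing, TMM scaling among them. Slc27a4 stood at 116 ± 22.5 CPM in null and 66.3 ± 5.71 CPM in wild type embryos at E2.5 (adjusted p = 0.0605, limma), when 0 of 10 passed. The list's median log2 difference at E2.5 was 0.71, with 7 of 10 genes above 0 (all genes -0.015), and 1 gene passed in each of edgeR, DESeq2 and the fit over all 18 libraries. Of the cytochrome P450 and aryl hydrocarbon receptor list, 1 of 6 fell at E3.75, against 4.6% of all genes. It was Cyb5b, a mitochondrial cytochrome b5 (24.1 ± 7.58 CPM in null, 43.8 ± 6.15 CPM in wild type embryos, adjusted p = 0.0403, limma), a call lost likewise under 11 of 16. Of the securin, separase and cohesin list, 1 of 14 rose at E3.75, against 3.6% of all genes. It was the cohesin subunit gene Stag2 (62.7 ± 11.04 CPM in null, 35.2 ± 9.46 CPM in wild type embryos, adjusted p = 0.0227, limma, but 0.309 with the first 2 libraries). Pttg1, securin itself, stood at 73.6 ± 15.6 CPM in null and 134 ± 17.2 CPM in wild type embryos at E4.5 (adjusted p = 0.136). Of the CITED family and its partners, 0 of 5 passed at E2.5, 0 of 7 one stage later and 0 of 6 at the last, where all 6 differences were above 0 with a median of 0.46 (all genes 0.059). Across the 7 pathway lists, 0 genes passed at E4.5 in limma. In edgeR, DESeq2, the fit over all 18 libraries and without null library 1, the same 3 passed at that stage: Slc46a1 (830 CPM in null, 572 CPM in wild type embryos, adjusted p = 0.0498 in edgeR), Tmem14c, a mitochondrial porphyrin transporter (161 CPM in null, 365 CPM in wild type embryos, adjusted p = 0.0264 in edgeR), and Pttg1 (adjusted p = 0.0264 in edgeR). Tfap2c, a TFAP2 factor, passed in the fit over all 18 libraries alone (adjusted p = 0.0384). Tmem14c and Tfap2c are named after their values were seen.

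Markers of the cell types of the embryo were measured beside these differences. The summed level of the trophectoderm markers at E3.75 was 11522 to 13163 CPM in null and 12753 to 13865 CPM in wild type libraries (21 of 25 listed genes), and at E2.5 it was 6151 to 6553 CPM in null and 5725 to 6057 CPM in wild type libraries (18 of 25). At E4.5 it was 20703 to 23026 CPM in null and 21809 to 23768 CPM in wild type libraries (22 of 25). In limma, 0.409% of all genes were called higher and 0.184% lower at E2.5, and 3.6% higher and 4.6% lower at E3.75. Of the trophectoderm markers, Hand1 and Ovol1 rose and Cldn6 fell at E2.5. At E3.75 Ptges and Tead4 rose and Tspan8, Lgals3 and 1 more of the 21 fell. The 3 calls at E2.5 became 0 without any 1 of the null libraries. The epiblast markers summed to 2839 to 3003 CPM in null and 3433 to 3728 CPM in wild type libraries at E2.5 (13 of 21), where Fbxo15 rose and Pou5f1 fell. Pou5f1 is in that sum, and without it the other 12 markers summed to 1908 to 2020 CPM in null and 1624 to 1740 CPM in wild type libraries, the opposite direction. That direction leans on Fbxo15, which is among the 12 and averaged 802 CPM in null and 433 CPM in wild type embryos. Of the 13 markers at E2.5, 5 had a difference above 0, and the median log2 difference was -0.17 (all genes -0.015). The epiblast markers summed to 2228 to 2384 CPM in null and 2399 to 2960 CPM in wild type libraries at E3.75 (17 of 21), where 2 rose, Nanog among them, and 9 fell. At E4.5 the sum was 1609 to 1858 CPM in null and 2416 to 2648 CPM in wild type libraries (18 of 21). Without Pou5f1 the sum was 2007 to 2099 CPM in null and 2019 to 2360 CPM in wild type libraries at E3.75, where the groups overlapped, and 1514 to 1715 CPM in null and 2181 to 2374 CPM in wild type libraries at E4.5. Of the primitive endoderm markers, 2 of 17 rose at E3.75, Dab2 among them, and 6 fell, among them Lama1, Lamb1 and Sparc. The list's sum was 2281 to 2377 CPM in null and 2113 to 2179 CPM in wild type libraries. That direction leans on Dab2, which averaged 986 CPM in null and 630 CPM in wild type embryos. Of the 17 markers, 6 had a difference above 0, and the median log2 difference was -0.73 (all genes -0.039). At E4.5, 0 genes of these 3 lists passed in limma. In DESeq2, 4 epiblast, 3 primitive endoderm and 2 trophectoderm markers passed at that stage. In edgeR 4, 2 and 0 passed, in that order of lists, and in the fit over all 18 libraries 4, 3 and 3. Without null library 1 there were 5, 2 and 1. Where they passed, Ptges, Hand1, Tfap2c, Fbxo15 and Lrp2 were higher in null embryos and all the others lower. Among all genes, DESeq2 called 27 higher and 85 lower of 2611, and edgeR 1 and 41 of 6545. The fit over all 18 libraries called 118 and 103 of 5430, and leaving out null library 1 gave 35 and 85 of 6545. Cdx2, a trophectoderm factor, averaged 543 CPM in null and 558 CPM in wild type embryos at E3.75 (adjusted p = 0.85, limma), and Gata6, a primitive endoderm factor, 143 CPM in null and 135 CPM in wild type embryos (adjusted p = 0.744).

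Of 20 markers of maternal blood, oviduct, uterus and cumulus cells, 3 had values at E2.5, all globins, summing to 1076 to 1330.5 CPM in null and 1024 to 1437 CPM in wild type libraries. At E3.75, 5 had values and summed to 511, 235 and 328 CPM in null and 150.4, 231 and 182 CPM in wild type libraries. Hba-a1 and Hbb-bs rose there in null embryos, to means of 62.8 ± 28.4 and 199 ± 94.7 CPM, against 24.0 ± 4.29 and 93.5 ± 24.9 CPM in wild type embryos (adjusted p = 0.0052 and 0.00818, limma). At E4.5 the 3 globins summed to 1085, 148 and 359.6 CPM in null and 149, 268 and 211 CPM in wild type libraries, with null library 1 far above the rest. The leukocyte marker Ptprc and the oviduct gene Ovgp1 were on this list and had no value at any stage. Genes low in most libraries were removed before deposit, so a missing value does not show that a transcript was absent. The part of these cell types and of carried-over blood RNA in the levels of the 8 genes was not tested.

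The 4 other genes that met the same conditions at E2.5 and E3.75 were Trim43b, Trim43c, Rps18 and Gm5612. Trim43b and Trim43c belong to a family of near-identical copies, and Rps18, a ribosomal protein gene, has many processed copies, so their counts are uncertain. Rps18 averaged 367 CPM in null and 392 CPM in wild type embryos at E4.5 (log2 difference -0.08, adjusted p = 0.818, limma), while Trim43c averaged 152 CPM in null and 95.5 CPM in wild type embryos (0.71, adjusted p = 0.221). Gm5612 averaged 73.2 CPM in null and 49.1 CPM in wild type embryos at that stage (0.56, adjusted p = 0.265), and Trim43b had no value there. At the edge of the choice, the greater of the 2 adjusted p values was 0.0179 for Acot11 and Fam151a, 0.0333 for Slc6a8 and 0.0413 for Flvcr2 among the 8 genes. Just outside were Ctsz at 0.0555 and Guca1a and Otub1 at 0.0558.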

How the data were processed

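RNA of mouse embryos was measured in 18 libraries, 6 groups of 3. The authors deposited CPM values, reads scaled to the library total, in 1 table per stage, with genes low in most libraries removed, and per the submitters' processing notes edgeR and the mm9 build were used. Which aligner, counting tool and annotation served is not given in the sources used here. Every column sums to 1000000 within its table, so levels of different stages are not on 1 scale. All 121650 values (100%) came to a whole number of reads, to within 0.01, on division by the worth of 1 read, and the sums give the depth. Depth limits precision, and no molecular identifiers are stated.

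limma 3.58.1 (R 4.3.3) with a variance trend was fitted to log2(CPM + 1) of the 6 libraries of a stage, two-sided, with Benjamini-Hochberg adjustment over all genes of the table and a threshold of 0.05. Differences on this scale understate those of low genes. edgeR 4.0.16 and DESeq2 1.42.0 ran on the recovered reads. Other alternatives were TMM and size factor scaling, a pseudocount of 0.1 or 5, leaving out genes with a mean under 10 CPM, each library left out, the first 2 libraries, a fit over all 18, and a replicate block. The fits were checked on simulated reads. The 8 genes and the gene lists were chosen with earlier results of these data known. Beside the 8 genes, those named are the 2 nearest in profile to each, measured neighbours, up to 4 passing genes of each list or else the one with the smallest p, Pou5f1, Nanog, Cdx2, Gata6 and Xist, and genes meeting or just missing the same choice. Overlaps used GENCODE M21 and promoters RefSeq, both on GRCm38 and matched by identifier or symbol, and no coordinates were converted. The mix of libraries used genes with at least 5 reads in each.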

Additional observations from a re-analysis of the deposited data

How the results depend on the processing

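The E4.5 differences of the 8 genes kept their direction under all 15 alternatives, and 10 of these gene-by-setting results passed the threshold where limma with all libraries did not. At E4.5 the count of the 8 genes that passed was 2 in DESeq2 and 4 in the fit over all 18 libraries, and 0 to 4 with a library left out, the 4 without null library 1. Genes called at E2.5 numbered 42, and 179 in edgeR, 232 in DESeq2, 99 with TMM, 93 with size factors, 139 over all 18 libraries, 1 with the first 2 libraries and 1 to 773 with a library left out. At E3.75 there were 545, and 288 in DESeq2, 213 over all 18, 155 with the first 2 and 209 to 652 with a library left out. Of the 545, 239 were higher and 306 lower in null embryos, against 287 and 216 with TMM and 282 and 219 with size factors. At E4.5 there were 0 (985 at an unadjusted p under 0.05), and 42 in edgeR, 112 in DESeq2, 221 over all 18, 2 with TMM, 1 with a pseudocount of 5 and 0 to 120 with a library left out, the 120 without null library 1. The choice of the 8 genes used E2.5 and E3.75, so the next counts describe that choice and test nothing. At E2.5, 0 of the 8 would have met its condition without any 1 null library or with the first 2 libraries (0 of all genes called higher). Without wild type library 3, 0 of the 8 would have met it there (5 of all 7082 genes). At E3.75, 5 would have met it with the first 2 libraries (71 of all 6648 genes). Without wild type library 3 it was also 5 at that stage (114 of all genes). With TMM all 8 would have met the condition at both stages (76 of all genes called higher at E2.5, 287 at E3.75). In edgeR it was also 8 at both (129 and 300 called higher), and in DESeq2 8 and 7 (154 and 173). Replicate numbers gave deviations correlated at -0.032 to 0.117 at E2.5 and -0.070 to 0.043 at E3.75, so they were not taken to pair samples. A replicate block gave 30 genes at E2.5 and 438 at E3.75, of which 23 and 198 were higher in null embryos. With it, 7 and 8 of the 8 genes would have met the condition of the choice. No paired analysis was possible at E4.5 because its wild type columns carry no number. The causes were not tested.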
